A study of Homo sapiens with 7 samples.

Results

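The genes described are 10 receptors for growth factors with known roles in melanoma, taken by gene name, namely MET, KIT, IGF1R, FGFR1, ERBB2, ERBB3, EGFR, PDGFRB, NTRK2 and NGFR. Of these 10, 8 had a row in the deposited table of 21305 genes. EGFR and PDGFRB had no row and were not analysed here, and neither was AXL, another receptor kinase. MET fell under both hairpins against the long non-coding RNA GRASLND. KIT lay above the control in every library with such a hairpin, but passed the test only under the hairpin sh8. No other receptor passed.

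The 7 RNA-seq libraries came from 501Mel, an established human melanoma cell line. Every culture carried a hairpin that doxycycline switches on, and every library is labelled as doxycycline induced. The groups were shlacZ, a hairpin against the bacterial gene lacZ that served as the control (n = 3), and sh4 (n = 2) and sh8 (n = 2), which both target GRASLND. According to the methods of the study, hairpins were delivered by lentivirus and cells were kept as puromycin-selected pools and not as single clones. The sources used here do not tie sh4 and sh8 to the names of the hairpins in the study, and uninduced or hairpin-free cells were not analysed here. The labels do not say whether libraries of 1 group came from separate cultures, so p-values measure only the spread between these libraries, which may be technical.

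Most of these receptors are receptor tyrosine kinases. A ligand outside the cell brings receptor molecules together, the kinase domains inside phosphorylate each other, and adaptor proteins that bind the phosphorylated tails pass the signal to the RAS and ERK branch and to the PI3K and AKT branch. KIT is needed for the survival and migration of melanocytes during development, MET is the receptor of hepatocyte growth factor and is a known target of the melanocyte factor MITF, and NGFR marks the neural crest from which melanocytes arise.

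The depth was 13337317 to 22855232 reads per library. GRASLND itself was 290 to 330 normalised counts in the control, 131 and 175 under sh4 and 163 and 227 under sh8, lower in 4 of 4 knockdown libraries (log2 fold change -1.02, adjusted p 0.00662 for sh4, which was 0.0774 without the second sh4 library, and -0.68, adjusted p 0.110 for sh8). A normalised count is a read count divided by the size factor of its library. All 9 melanocytic markers looked for had a row, and their summed normalised count was 137601 to 148540 in the control, 54140 to 62007 under sh4 and 104336 to 107281 under sh8. Of the 9 markers, 6 passed lower under sh4, 1 pooled and 0 under sh8, and TYR, PAX3 and S100B did not pass and had log2 fold changes above 0 under both hairpins. Of the markers of other cells, 2 of 6 keratinocyte, 2 of 6 fibroblast, 0 of 4 endothelial and 1 of 5 immune genes had a row. The keratinocyte genes summed to 143 to 219 normalised counts per library and the fibroblast genes to 6.28 to 19.4. The immune gene, LYZ, was at most 7.28 normalised counts in the control and sh8 libraries and 337 and 492 under sh4. The part of these markers in the receptor results was not tested.

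The first question was which receptors the control cells expressed. Levels of different genes were compared as normalised counts per kilobase of the canonical transcript. In the shlacZ libraries MET stood highest at 1820 ± 132 per kb (SD, n = 3), KIT followed at 1355 ± 79.2 and IGF1R, the receptor of insulin-like growth factors, at 1022 ± 68.0. These 3 lay in the 97.7, 96.7 and 95.3 percentile of all genes with a length. FGFR1, a receptor of fibroblast growth factors, was at 125 ± 11.7 per kb, 8.16 times below IGF1R. ERBB3, the kinase-impaired receptor of neuregulins, was at 78.5 ± 3.11 and its partner ERBB2, which has no ligand of its own, at 21.3 ± 7.25. NTRK2, a receptor of brain-derived neurotrophic factor, was at 0.508 ± 0.405 per kb and NGFR, the low-affinity neurotrophin receptor, at 0.202 ± 0.350.

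In the control, the ranges of neighbours in this order did not overlap, except for NTRK2 and NGFR. The order of the top 3 depended on the length used, a choice examined after the values were seen. With the length of all annotated exons in place of the canonical transcript, MET remained first (1718 ± 125 per kb), IGF1R stood at 897 ± 59.7 and KIT at 616 ± 36.0, and the ranges of FGFR1 and ERBB3 overlapped. On that length IGF1R and KIT were level under sh4 (769 ± 97.0 and 762 ± 5.34 per kb), and MET (1034 ± 107) stood above KIT (939 ± 70.4) under sh8. The plot of levels by library shows the 3 tiers, with MET, KIT and IGF1R between 523 and 2177 per kb, FGFR1, ERBB3 and ERBB2 between 14.9 and 135, and NTRK2 and NGFR near 0.

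**Figure D1:**
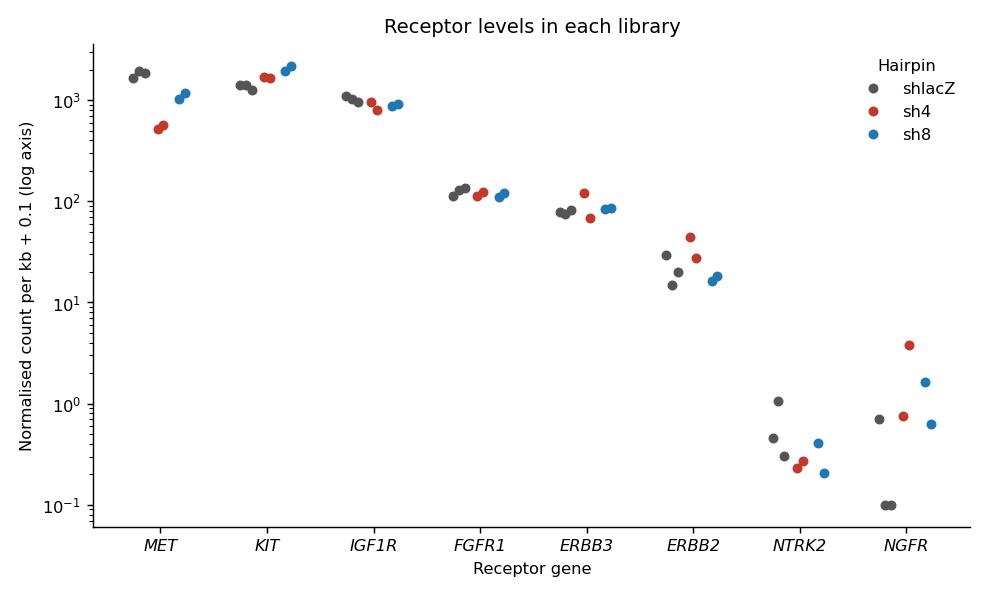
Normalised count per kb of canonical transcript plus 0.1 on a log axis for the 8 receptors with a row, 1 point per library, coloured by hairpin (shlacZ n = 3, sh4 n = 2, sh8 n = 2). MET is the highest receptor in the control, while KIT is the highest under sh4 and under sh8 on this length (not on that of all exons), and the points of NGFR at 0.1 are libraries with no read.

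To determine whether knockdown of GRASLND changed the receptors, log2(normalised count + 1) was compared with limma over the 15420 genes whose mean reached 10, and a gene passed at a Benjamini-Hochberg adjusted p under 0.05. A log2 fold change below is a difference on that scale. Of the 8 receptors with a row, 6 reached the minimum and 2, NGFR and NTRK2, did not. With both hairpins pooled (n = 4 against 3), 1 of the 6 passed, MET, and 4.61% of all tested genes did (2.55% higher and 2.06% lower). Under sh4 1 of the 6 passed, again MET, while 22.5% of all tested genes did (10.5% higher and 11.9% lower). Under sh8 2 of the 6 passed, MET lower and KIT higher, where 2.92% of all tested genes did (1.38% higher and 1.54% lower). Between sh4 and sh8 directly 1 of the 6 passed, MET, beside 7% of all tested genes (3.67% higher and 3.33% lower under sh4). With so few receptors these counts say little about receptors as a class, and under sh4 the count was no more than the share among all genes. The comparisons share the same 3 control libraries.

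MET (ENSG00000105976, chromosome 7, 116672196 to 116798377, plus strand of hg38) was 11393, 13101 and 12747 normalised counts in the shlacZ libraries, 3566 and 3888 under sh4, and 6921 and 8020 under sh8. The 3 groups did not overlap, with sh8 between the control and sh4. How common such a separation of 3 groups was among all tested genes was not counted. From a control mean of 12414 ± 902 (SD, n = 3), MET went to 3727 ± 227 (SD, n = 2) with sh4, 70.0% lower, and to 7471 ± 777 (SD, n = 2) with sh8, 39.8% lower. In bulk samples fewer cells with a transcript and less transcript per cell cannot be told apart. MET fell by 1.73 on the log2 scale under sh4 (SE 0.12, adjusted p 8.00e-05), and this held in 17 of 17 alternatives. Under sh8 it fell by 0.73 (SE 0.12, adjusted p 0.0135), a call kept in 12 of 17 alternatives. It was lost without shlacZ 2 or 3 (the second and the third library) or either sh8 library, where the adjusted p lay between 0.0535 and 0.133. The pooled log2 fold change was -1.23 (SE 0.27, adjusted p 0.0340). Its SE was larger than for either hairpin alone, since the pooled fit counts the gap between sh4 and sh8 as spread. The pooled call was kept in 10 of 17 alternatives and was lost without any of the shlacZ libraries and without either sh4 library (adjusted p 0.0556 to 0.148, log2 fold change -1.29 to -1.05). MET was the receptor that differed between the hairpins, lower by 1.0 on the log2 scale under sh4 than under sh8 (95% interval -1.30 to -0.70, adjusted p 0.00302).

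KIT (ENSG00000157404, chromosome 4, 54657267 to 54740783, plus strand) moved the other way. It was 7227, 7191 and 6504 normalised counts in the shlacZ libraries, 8670 and 8584 under sh4, and 10076 and 11203 under sh8. Again the 3 groups did not overlap, but here the order was control, sh4, sh8, and the share of all tested genes with such a separation was not counted. The mean rose from 6974 ± 407 (SD, n = 3) to 10639 ± 797 (SD, n = 2) under sh8, 52.6% above the control (log2 fold change 0.61, SE 0.11, adjusted p 0.0210). This call was kept in 12 of 17 alternatives and was lost without shlacZ 2 or 3 or either sh8 library (adjusted p 0.0634 to 0.217). Under sh4 the mean was 8627 ± 60.5 (SD, n = 2), 23.7% above the control, which did not pass (0.31, SE 0.11, adjusted p 0.0743), nor did the pooled comparison (0.46, SE 0.13, adjusted p 0.0723). Passing under sh8 and not under sh4 is no difference between the hairpins, and the direct comparison did not pass either (-0.30, 95% interval -0.57 to -0.03, adjusted p 0.181).

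IGF1R (ENSG00000140443, chromosome 15, 98648539 to 98964530, plus strand) was 13347, 12473 and 11682 normalised counts in the shlacZ libraries, 11676 and 9763 under sh4, and 10769 and 11131 under sh8. All knockdown libraries lay below all control libraries, but the first sh4 library did so by less than 10 normalised counts. The mean was 12501 ± 833 in the control, 14.3% lower under sh4 and 12.4% lower under sh8. None of this passed. The sh4 value on the log2 scale was -0.23 (adjusted p 0.220) and became 0.014 after quantile normalisation, the sh8 value was -0.19 (adjusted p 0.455) and the pooled value -0.21 (95% interval -0.47 to 0.05, adjusted p 0.310).

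**Figure D2:**
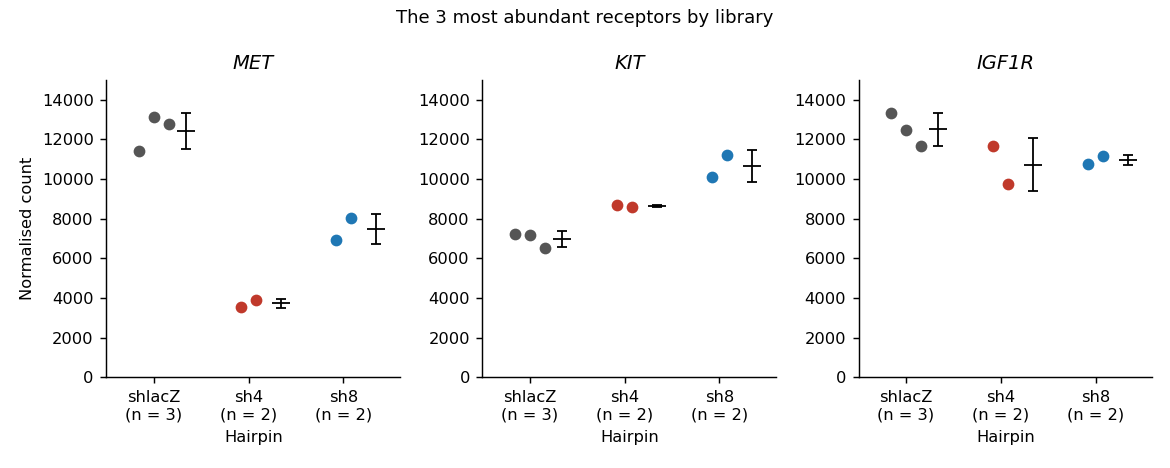
Normalised counts of MET, KIT and IGF1R by hairpin, 1 point per library, with the mean and SD of each group as black bars. The means for shlacZ, sh4 and sh8 are 12414, 3727 and 7471 for MET and 6974, 8627 and 10639 for KIT, and IGF1R lies between 9763 and 13347 in every library.

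Of the 6 tested receptors, 3 (MET, KIT and IGF1R) thus had all knockdown libraries beyond all control libraries, a separation that 21.2% of all tested genes showed. Since MET and KIT moved in opposite directions, their balance changed in each library. KIT over MET, as a ratio of levels per kb, came to 0.841, 0.727 and 0.676 in the shlacZ libraries, 3.22 and 2.93 under sh4, and 1.93 and 1.85 under sh8. KIT was below MET in 3 of 3 control libraries and above it in 4 of 4 knockdown libraries on the canonical length, but in 2 of 4, those of sh4, on the length of all exons, where the ratio was 0.928 and 0.891 under sh8. The fold by which the ratio differs between libraries does not depend on the length. MET made up 41.1 ± 2.72% (SD, n = 3) of the summed level per kb of the 8 receptors in the control. With sh4 this share was 16.3 ± 1.62% (SD, n = 2), and with sh8 25.6 ± 0.870% (SD, n = 2). The share of KIT was 30.6 ± 1.39%, 50.1 ± 1.56% and 48.3 ± 0.236% in the same order. On the length of all exons these shares were 51.7 ± 2.98%, 24.1 ± 2.47% and 36.3 ± 1.23% for MET and 18.5 ± 1.0%, 35.5 ± 1.23% and 33.0 ± 0.159% for KIT. The summed level itself was 4422 ± 120 per kb with shlacZ, 3348 ± 128 with sh4 and 4275 ± 300 with sh8. IGF1R held 20.3% to 27.8% of it in every library. The shares are parts of the same sum, so the share of KIT rises when MET falls. The level of KIT itself was 1355 per kb with shlacZ, 1676 with sh4 and 2067 with sh8.

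**Figure D3:**
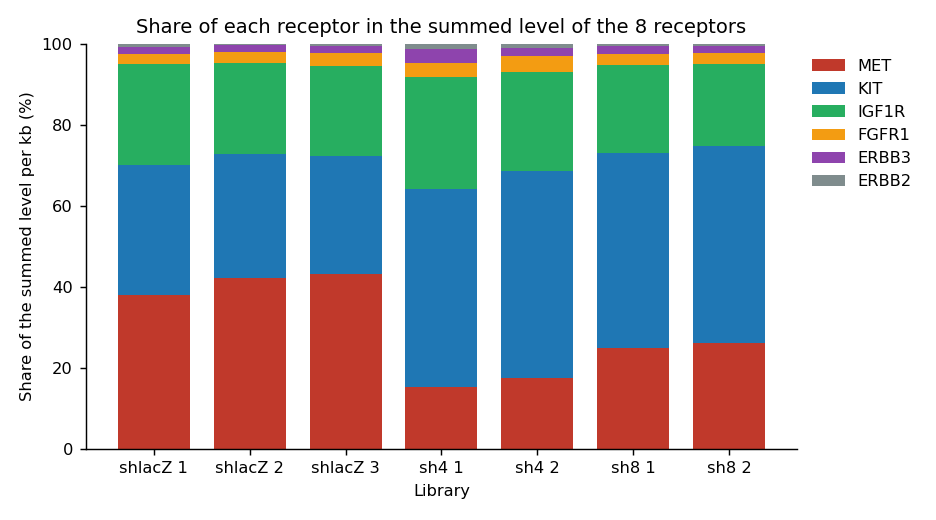
Share in percent of each receptor in the summed level per kb of canonical transcript of the 8 receptors, 1 bar per library (NTRK2 and NGFR are too low to be seen and are not drawn). MET takes 38.1% to 43.2% in the control libraries, 15.2% and 17.5% under sh4 and 25.0% and 26.2% under sh8, while KIT takes 48.2% to 51.2% in the knockdown libraries.

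The start regions of MET and KIT are shown because these were the receptors that passed, in opposite directions, and because the melanocyte factor MITF is known to bind the E-box CACGTG, also in its variant form CATGTG. They are from RefSeq (GRCh38.p14, plus strand), with 170 bases before and 30 from the annotated start, and capitals mark matches on either strand to these motifs or to the GC box GGGCGG. The windows are chr7:116672026-116672225 for MET and chr4:54657787-54657986 for KIT.
MET: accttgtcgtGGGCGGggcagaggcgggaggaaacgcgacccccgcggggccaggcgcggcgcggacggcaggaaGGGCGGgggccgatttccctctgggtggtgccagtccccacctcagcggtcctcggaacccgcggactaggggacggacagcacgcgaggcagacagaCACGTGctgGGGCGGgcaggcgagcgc
KIT: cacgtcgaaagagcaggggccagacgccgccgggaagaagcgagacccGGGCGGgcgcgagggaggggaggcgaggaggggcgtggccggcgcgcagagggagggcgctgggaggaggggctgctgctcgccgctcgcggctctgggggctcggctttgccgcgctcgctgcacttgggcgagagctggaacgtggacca

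In windows of 300 bases around the start, MET held 1 match to CACGTG, 3 bases past the start, and 3 matches to GGGCGG. KIT held 1 match to GGGCGG and none to either E-box form. Of 35116 such windows in the table, 7.26% held CACGTG, 11.1% the variant E-box and 45.0% the GC box. A window was given for 5 of the 8 receptors, of which ERBB2 and IGF1R held no E-box of either form and NTRK2 held 1 of the variant form in 1 of its windows. These matches are letters in a window and not measured binding sites. MITF itself passed lower under sh4 (log2 fold change -0.71, adjusted p 0.00483 by limma). It did not pass under sh8 (-0.13, adjusted p 0.658) or pooled (-0.42, adjusted p 0.209). Its part in the changes of MET and KIT was not tested.

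FGFR1 (ENSG00000077782, chromosome 8, 38400215 to 38468834, minus strand) was 640, 731 and 769 normalised counts in the shlacZ libraries, 636 and 701 under sh4, and 622 and 685 under sh8. The 3 groups overlapped. The pooled log2 fold change was -0.11 (95% interval -0.38 to 0.17, adjusted p 0.628).

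ERBB3 (ENSG00000065361, chromosome 12, 56076799 to 56103505, plus strand) was 444, 422 and 457 normalised counts in the shlacZ libraries, 679 and 384 under sh4, and 472 and 485 under sh8. The sh4 libraries lay on either side of the control, and their mean of 532 ± 208 (SD, n = 2) rested on the first of them. Without that library the log2 fold change under sh4 went from 0.21 (adjusted p 0.515) to -0.20. The pooled log2 fold change was 0.17 (SE 0.18, adjusted p 0.614).

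ERBB2 (ENSG00000141736, chromosome 17, 39687914 to 39730426, plus strand) was 133, 68.1 and 90.5 normalised counts in the shlacZ libraries, 200 and 124 under sh4, and 73.8 and 81.9 under sh8. Both sh4 libraries lay above both sh8 libraries and the control overlapped with each. No comparison passed, with log2 fold changes of 0.74 under sh4 (SE 0.31, adjusted p 0.116), -0.27 under sh8 (SE 0.31, adjusted p 0.694) and 1.01 for sh4 against sh8 (95% interval 0.25 to 1.77, adjusted p 0.111). The pooled value of 0.24 (adjusted p 0.718) became -0.043 without the first sh4 library. ERBB2 shares 571 bases of exon with MIEN1 and 144 with PGAP3 on the opposite strand. Libraries were made with a stranded kit, but the sources used here do not give the strand setting of the counting, so the 3 genes may share reads. FGFR1 (138 bases with LETM2 and 387 with a non-coding RNA) and NGFR (924 and 202 bases) also overlap exons on the opposite strand. ERBB3 shares 31 bases of exon with ENSG00000257411 on the same strand. Reads may be shared there as well.

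NGFR (ENSG00000064300) and NTRK2 (ENSG00000148053) were close to 0 at this depth. NGFR was 2.06, 0 and 0 normalised counts in the shlacZ libraries, 2.26 and 12.7 under sh4, and 5.27 and 1.82 under sh8. In reads these were 2 in all control libraries together, 19 under sh4, of which 17 fell in 1 library, and 6 under sh8. NTRK2 was 3.10, 8.38 and 1.74 normalised counts in the shlacZ libraries, 1.13 and 1.49 under sh4, and 2.64 and 0.910 under sh8, or 13, 3 and 3 reads per group. With no minimum mean, neither passed in the pooled comparison (adjusted p 0.166 for NGFR and 0.400 for NTRK2), and a difference was not detectable at this depth. The plot of log2 fold changes leaves both out.

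**Figure D4:**
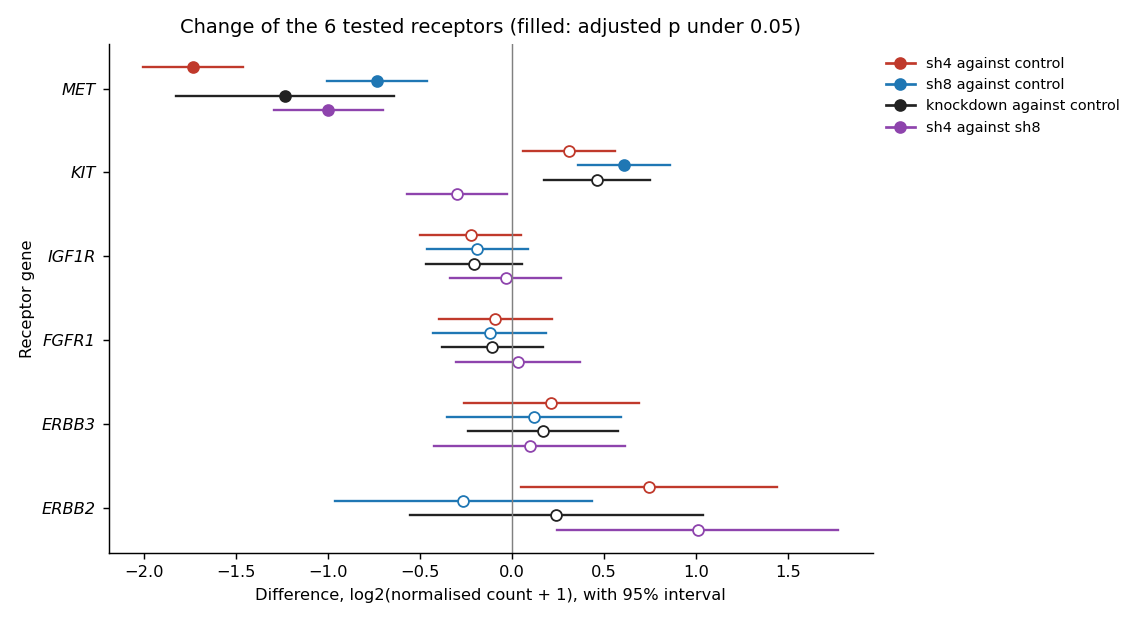
Difference on the scale of log2(normalised count + 1), with its 95% interval from limma, for the 6 receptors tested in 4 comparisons, where filled points passed an adjusted p under 0.05. MET lies below 0 in all 4 comparisons, KIT passed under sh8 alone at 0.61, and the intervals of ERBB2 are the widest.

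Next, the ligands of these receptors were examined, since a receptor signals when its ligand is present in the culture or made by the cells. Of 28 ligands listed, 14 had a row and 8 reached the minimum mean. HGF, the ligand of MET, NRG1, the best known ligand of ERBB3, and the neurotrophins BDNF, NTF3 and NTF4 had no row. With the hairpins pooled 3 of 8 ligands passed, 1 higher and 2 lower, under sh4 6 of 8, 3 higher and 3 lower, under sh8 1 of 8, lower, and between sh4 and sh8 2 of 8, both higher. Over all tested genes 4.61%, 22.5%, 2.92% and 7% passed in these 4 comparisons. These counts include FGF1 (higher pooled and under sh4) and NRG4 (higher under sh4 and between the hairpins). Both reached the minimum mean only through the sh4 libraries, so their calls are not read here and only their values are given. For the same reason the pooled, sh4 and hairpin counts are not read against these shares.

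KITLG, the ligand of KIT, fell while KIT was higher. It was 395, 443 and 403 normalised counts in the shlacZ libraries, 238 and 319 under sh4, and 248 and 222 under sh8, lower in 4 of 4 knockdown libraries. The log2 fold change was -0.58 under sh4, -0.81 under sh8 (adjusted p 0.0359 for each) and -0.70 pooled (SE 0.16, adjusted p 0.0405). Each of these calls depended on single libraries. The sh8 call was lost without shlacZ 2 or 3 or either sh8 library (adjusted p up to 0.258). The sh4 call was lost without the second or the third shlacZ, the first sh4 or either sh8 library (up to 0.284), and the pooled call without any shlacZ, the first sh4 or the second sh8 library (up to 0.184).

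IGF1, a ligand of IGF1R, was 38.2, 32.5 and 27.8 normalised counts in the shlacZ libraries, 14.7 and 3.73 under sh4, and 22.4 and 10.01 under sh8. It passed under sh4 (log2 fold change -1.96, SE 0.56, adjusted p 0.0315), not without shlacZ 2 or 3 or the second sh4 library (adjusted p up to 0.243). IGF2, the other ligand of IGF1R, was at most 5.65 normalised counts in any library. FGF1, a ligand of FGFR1, was 1.03, 2.09 and 7.83 normalised counts in the control, 39.5 and 56.7 under sh4, and 10.5 and 19.1 under sh8. All knockdown libraries lay above all control libraries, which is not read further, since FGF1 reached the minimum mean only through the sh4 libraries. FGF2 did not exceed 3.48 normalised counts.

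PDGFD, a ligand of PDGFRB, was 217, 157 and 201 normalised counts in the shlacZ libraries, 710 and 893 under sh4, and 227 and 262 under sh8. It rose under sh4 (log2 fold change 2.06, SE 0.19, adjusted p 0.000142) and differed between the hairpins (1.70, SE 0.21, adjusted p 0.00209), both in 7 of 7 fits that left out a library, while sh8 did not pass (0.36, adjusted p 0.353). NRG2, a ligand of ERBB3, was 93.6 to 125 normalised counts over all libraries (pooled log2 fold change 0.04, adjusted p 0.922). HBEGF, a ligand of EGFR, was 55.4 to 119 (0.11, adjusted p 0.868), and EGF and TGFA did not exceed 5.22.

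The other ligands that passed were NRG3 and NRG4, both ligands of ERBB4, named after their values were seen. ERBB4 itself was 8.26, 5.24 and 4.35 normalised counts in the shlacZ libraries, 0 and 0 under sh4, and 6.59 and 6.37 under sh8. It did not reach the minimum mean. NRG3 fell from 1596, 1131 and 1061 normalised counts to 690 and 402 under sh4 and was 659 and 633 under sh8 (pooled log2 fold change -1.09, adjusted p 0.0264, sh4 -1.24, adjusted p 0.00525). The pooled call was lost without any of the shlacZ libraries (adjusted p up to 0.0991), and the sh4 call without the second sh4 library (0.0587). NRG4 was 0.870 to 5.24 normalised counts in the control, 29.4 and 47.8 under sh4, and 3.95 and 3.64 under sh8, so that the control and sh8 overlapped.

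**Figure D5:**
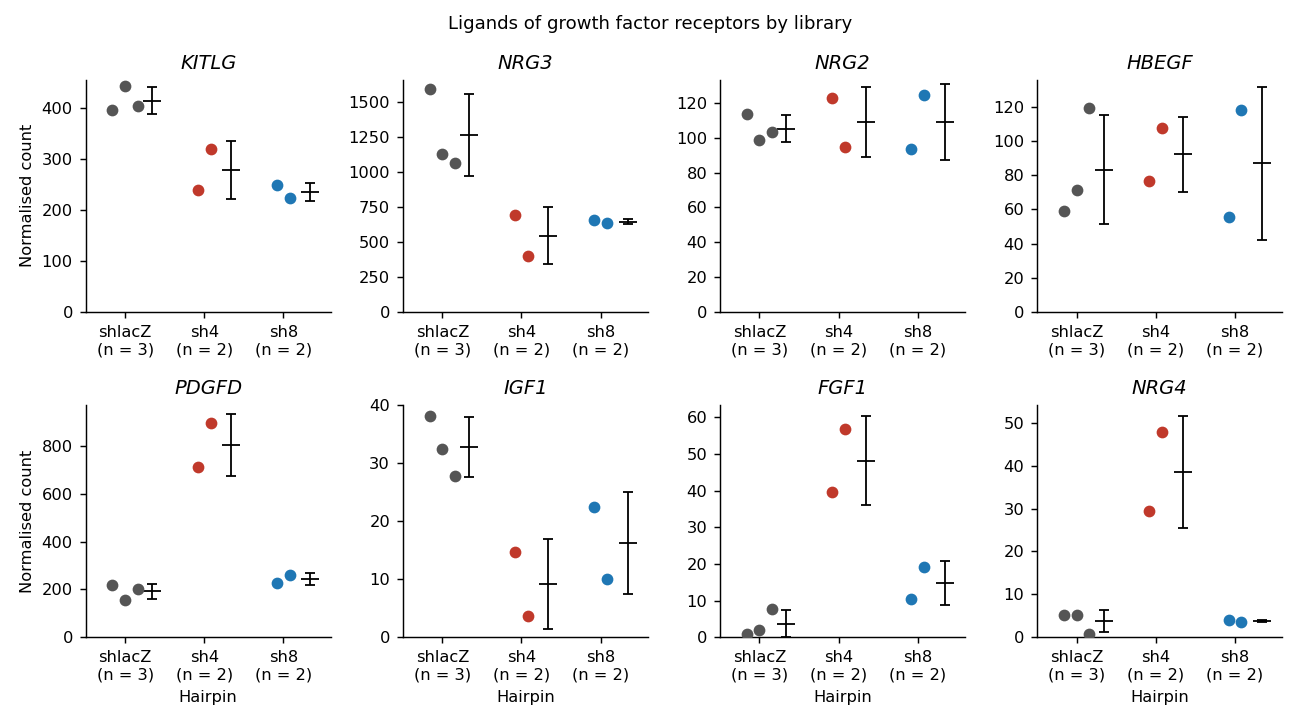
Normalised counts of the 8 ligands that reached the minimum mean, by hairpin, 1 point per library, with the mean and SD of each group as black bars. KITLG, NRG3 and IGF1 lie lower in 4 of 4 knockdown libraries than in the control, and PDGFD lies higher in 4 of 4. Over all tested genes 21.2% showed such a separation, in either direction. FGF1 and NRG4 reached the minimum mean only through the sh4 libraries and are not read against this share. PDGFD reaches 710 and 893 under sh4, and NRG2 and HBEGF overlap between all groups.

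Downstream of the receptors, adaptors link the phosphorylated tails to RAS and PI3K. Of 24 adaptors and exchange factors listed, 19 were tested, and 2 were higher and 0 lower pooled, 2 higher and 0 lower under sh4, and 2 higher and 1 lower under sh8. As shares these were 10.5%, 10.5% and 15.8%, beside 4.61%, 22.5% and 2.92% of all tested genes. IRS1, the adaptor that IGF1R and the insulin receptor use, was 422, 505 and 511 normalised counts in the shlacZ libraries, 1069 and 1278 under sh4, and 874 and 1079 under sh8. Its log2 fold change was 1.16 pooled (SE 0.15, adjusted p 0.00627), 1.29 under sh4 (SE 0.16, adjusted p 0.000554) and 1.02 under sh8 (SE 0.16, adjusted p 0.00954). The pooled value held in 17 of 17 alternatives, and the sh8 call was lost without the second sh8 library (adjusted p 0.130). IRS1 thus rose under both hairpins, whereas IGF1R itself did not pass.

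SOS2, an exchange factor that loads RAS, was 835 to 991 normalised counts in the control and 1210 to 1533 in the knockdown libraries (pooled log2 fold change 0.60, adjusted p 0.0299). That call was lost without the second or the third shlacZ, either sh4 or the second sh8 library (adjusted p up to 0.154). Its relative SOS1 was 3647 and 3944 under sh8 and 2153 to 2806 elsewhere (sh8 0.61, adjusted p 0.0380, kept in 1 of 7 fits that left out a library, the one without the first shlacZ library, and up to 0.273 in the others). GRB2, which ties receptors to SOS proteins, was 1508 and 1758 under sh4 and 891 and 934 under sh8, with the control at 1215 to 1567. It differed between the hairpins (0.84, SE 0.16, adjusted p 0.0129), but not without the second sh4 library or either sh8 library (up to 0.128). The adaptors with the highest level per kb in the control were PTPN11 (813 ± 80.5), the phosphatase SHP2 that relays signals from most of these receptors, and BEX3 (651 ± 63.7), a partner of NGFR, and neither passed in any comparison.

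Another list held proteins that switch receptors off or dampen their signals. Of 25 tested, 6 passed pooled (4 higher, 2 lower), 9 under sh4 (4 higher, 5 lower), 4 under sh8 (3 higher, 1 lower) and 1 between the hairpins, lower under sh4 (SOCS6). These were 24%, 36%, 16% and 4% of the list, beside 4.61%, 22.5%, 2.92% and 7% of all tested genes. CBLB, a ubiquitin ligase of the family that sends activated receptors to degradation, was 3394, 3698 and 3454 normalised counts in the shlacZ libraries, 6294 and 6819 under sh4, and 6268 and 6711 under sh8. Both hairpins gave nearly the same rise, with log2 fold changes of 0.90 for sh4 (adjusted p 0.000554), 0.88 for sh8 (adjusted p 0.00328) and 0.89 pooled (SE 0.10, adjusted p 0.00391). The pooled call held in 7 of 7 fits that left out a library, and the sh8 call was lost without the second sh8 library (adjusted p 0.0654). PTPRJ, a receptor phosphatase that removes phosphate from several of these kinases, was 1771 to 1943 normalised counts in the control, 3231 and 3616 with sh4 and 2771 and 3298 with sh8. It passed pooled (0.78, adjusted p 0.0117), for sh4 (0.87, adjusted p 0.00121) and for sh8 (0.69, adjusted p 0.0184). The pooled call was lost without shlacZ 2 or 3 (up to 0.0778), and the sh8 call also without either sh8 library (up to 0.199). CBL, the relative of CBLB first described, was 1816 to 2615 normalised counts over all libraries (pooled 0.01, adjusted p 0.971).

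PTPN1, a phosphatase of the insulin and IGF1 receptors (961 ± 85.0 per kb in the control), was 3522 to 4189 normalised counts in the control and 2475 and 2547 under sh8 (-0.60, adjusted p 0.0310), a call lost without the second or the third shlacZ or either sh8 library (up to 0.228). SOCS6, an adaptor that can send KIT to degradation, was 988 and 1016 under sh4 and 1366 to 1673 elsewhere, and its difference between the hairpins (-0.66, adjusted p 0.0225) was lost without any 1 of the sh4 and sh8 libraries (up to 0.167). The 2 that passed lower pooled were LRIG3, a membrane protein whose effect on these receptors was not examined here, and PTPRK, a receptor phosphatase. LRIG3 was 360 to 412 normalised counts in the control and 222 to 269 in the knockdown libraries (-0.69, adjusted p 0.0320), a call lost without the second or the third shlacZ or either sh4 library (up to 0.161). PTPRK was 1384 to 1586 and 878 to 1080 (-0.59, adjusted p 0.0290), a call lost without any shlacZ or either sh4 library (up to 0.136).

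Among feedback inhibitors of the RAS and ERK branch, SPRY1 and SPRY4 were also higher, while SPRY2, SPRED1 and SPRED2 did not pass in any comparison. SPRY1 was 485 to 596 normalised counts in the control and 702 to 1149 in the knockdown libraries (0.74 pooled, adjusted p 0.0426, and 0.87 under sh8, adjusted p 0.0388). SPRY4 was 1192, 1484 and 2547 in the control and 2545 to 4185 in the knockdown libraries (1.12 pooled, adjusted p 0.0398, and 1.26 under sh4, adjusted p 0.0129). The pooled call of SPRY1 was lost without any shlacZ, the first sh4 or the second sh8 library, and that of SPRY4 without the first or second shlacZ, either sh4 or the second sh8 library (adjusted p up to 0.177). The SPRY1 call under sh8 was kept only without the first shlacZ library, and the SPRY4 call under sh4 was lost without either sh4 library. SH2B3, an adaptor that dampens KIT signals and had the highest level per kb of this list (1105 ± 183), was 4982, 6053 and 6965 normalised counts in the control, 3087 and 3023 under sh4, and 4279 and 4536 under sh8. It fell by 0.96 on the log2 scale under sh4 (SE 0.14, adjusted p 0.00154, in 17 of 17 alternatives) and was lower in 4 of 4 knockdown libraries.

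In the PI3K and AKT branch 1 of 20 tested genes passed pooled, 2 under sh4, 0 under sh8 and 1 between the hairpins. These counts were near or below the share over all tested genes (4.61%, 22.5%, 2.92% and 7%). PDPK1, the kinase that activates AKT, was 578 to 619 normalised counts in the control and 810 to 852 in the knockdown libraries (pooled log2 fold change 0.46, adjusted p 0.0435). That call was lost in 7 of 7 fits that left out a library (up to 0.191). Under sh4 it was 0.47 (adjusted p 0.0206), lost without the second or the third shlacZ or either sh4 library (up to 0.130). PIK3CD, a catalytic subunit of PI3K, passed lower under sh4 (-0.47, adjusted p 0.0403, kept in 2 of 7 such fits, those without the first or second shlacZ library, and up to 0.201 in the others). INPP4B, a phosphatase that opposes PI3K, was 4159 and 3744 under sh4 and 6144 and 6410 under sh8 (-0.67, adjusted p 0.0101, lost without the second sh4 or either sh8 library, up to 0.101). RHEB (923 ± 84.1 per kb) and AKT1 (785 ± 57.5) had the highest levels of this branch in the control and did not pass in any comparison.

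In the RAS and ERK branch 0 of 15 tested genes passed pooled, under sh8 or between the hairpins, and 2 passed under sh4 (13.3% of the list, beside 22.5% of all tested genes). The shares over all tested genes in the other comparisons were 4.61%, 2.92% and 7%. BRAF, the kinase most often mutated in melanoma, was 1650 and 1529 normalised counts under sh4 and 999 to 1325 in the control (0.49, adjusted p 0.0314). MAP2K2, the kinase MEK2, was 968 and 882 under sh4 and 1134 to 1637 in the control (-0.57, adjusted p 0.0273). The BRAF call was kept in 1 of 7 fits that left out a library, the one without the first shlacZ library (up to 0.185 in the others), and the MAP2K2 call was lost without the second or the third shlacZ or either sh4 library (up to 0.162). NRAS (1470 ± 192 per kb) had the highest level of this branch in the control and did not pass in any comparison.

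Proteins around the receptors were examined as well. Of 7 binding proteins of insulin-like growth factors, 2 were tested and both passed under sh4, where 22.5% of all tested genes did, and neither passed in another comparison (4.61%, 2.92% and 7% of all tested genes). IGFBP2 was 1250, 2061 and 2038 normalised counts in the control and 957 and 1138 under sh4 (-0.74, adjusted p 0.0398, lost without the second or the third shlacZ or either sh4 library, up to 0.241). IGFBP5 was 35.1 to 67.0 in the control and 119 and 115 under sh4 (1.12, adjusted p 0.0254, lost without either sh4 library, up to 0.145).

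Of 12 tested proteases, protease regulators and inhibitors that act on ligands or on the outer part of receptors, 1 passed pooled, 4 under sh4, 1 under sh8 and 3 between the hairpins, beside 4.61%, 22.5%, 2.92% and 7% of all tested genes. ADAM19, among those of sh4 and of the hairpin comparison, reached the minimum mean only through the sh4 libraries, so those counts are not read against these shares. MMP14, a membrane-bound metalloprotease, was 1597, 2471 and 2409 normalised counts in the control, 4893 and 5799 under sh4, and 3997 and 5042 under sh8 (pooled log2 fold change 1.21, SE 0.18, adjusted p 0.00958, in 7 of 7 fits that left out a library). ADAM9, a protease that can release HBEGF, was 3119 to 3203 in the control, 1317 and 1735 under sh4, and 3525 and 3689 under sh8. It fell under sh4 (-1.06, adjusted p 0.000598) and differed between the hairpins (-1.25, SE 0.14, adjusted p 0.00183), both in 17 of 17 alternatives. TIMP1, an inhibitor of metalloproteases, was 372 and 407 under sh4 and 116 to 166 elsewhere (sh4 1.47, SE 0.20, adjusted p 0.00109). Its difference between the hairpins (1.41, adjusted p 0.00649) was lost without the second sh4 or the first sh8 library (up to 0.0876). ADAM19 was 0 to 3.14 normalised counts in the control, 81.3 and 160 with sh4, and 7.91 and 8.19 with sh8, values given with no test. ADAM9 (769 ± 10.2 per kb) and ADAM10 (658 ± 46.9), a protease known to shed many membrane proteins, had the highest levels of this list in the control, and ADAM10 did not pass in any comparison.

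Other growth factor receptors gave a frame for the 8. Of 35 further receptors listed, 22 had a row and 14 were tested. Of these 14, 1 passed pooled, 4 under sh4 (1 higher, 3 lower), 0 under sh8 and 1 between the hairpins. The shares of 7.14%, 28.6%, 0% and 7.14% were near the 4.61%, 22.5%, 2.92% and 7% of all tested genes. EPHA2, an ephrin receptor, was 201 to 300 normalised counts in the control, 474 and 552 under sh4, and 229 and 313 under sh8 (sh4 1.07, adjusted p 0.00603, lost without the second sh4 library at 0.0699). MERTK, a relative of AXL, was 483 to 753 in the control and 319 to 394 in the knockdown libraries (sh4 -0.67, adjusted p 0.0403, kept in 2 of 7 fits that left out a library, those without the first or the third shlacZ library, and up to 0.221 in the others). FGFR4, a relative of FGFR1, was 50.3 to 56.5 in the control, 9.03 and 14.9 with sh4, and 30.3 and 31.9 with sh8 (sh4 -2.12, adjusted p 0.00194, in 7 of 7 fits that left out a library). RYK, a receptor of WNT ligands, was 1312 to 1438 and 972 to 1058 in the same order (pooled -0.44, adjusted p 0.0461, lost in 7 of 7 such fits, up to 0.205). Its call under sh4 (-0.47, adjusted p 0.0156) was lost without the second or the third shlacZ or either sh4 library (up to 0.105). SORT1 (1428 ± 124 per kb) and IGF2R (786 ± 68.5) had the highest levels of these receptors in the control and did not pass in any comparison. Under sh4 the log2 fold changes of these 14 receptors ran from -2.12 (FGFR4) to 1.07 (EPHA2). Of the 14, only FGFR4, a gene of few counts, lay below the MET value of -1.73. The next lowest was FGFR3 at -0.89, which did not pass.

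Finally, genes whose pattern over the 7 libraries was most like that of each receptor were listed by Pearson's r of the log2 values, among the 12050 genes whose mean reached 50. The 7 libraries fall into 3 groups, so a high r describes mainly the order of the groups. For MET these were ABCB5 (r = 0.998), a transporter, which was 198 to 296 normalised counts in the control, 12.4 and 14.9 under sh4, and 73.8 and 87.4 under sh8, and MXRA7 (r = 0.997). A pattern like that of MET was common, with 873 genes over 0.9. For KIT the genes were QPCTL (r = 0.976) and CELF2 (r = 0.967), which was 2346 to 2502, 3899 to 4133 and 4893 to 5498 normalised counts in the control, sh4 and sh8 libraries, and 74 genes were over 0.9. For IGF1R the most alike was B4GALNT4 (0.977), for FGFR1 they were ICAM3 (0.991) and RAB10 (0.984), for ERBB3 PRKCA (0.949) and CLDN15 (0.944), and for ERBB2 APOD (0.983) and CUL9 (0.980).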

How the data were processed

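RNA depleted of ribosomal RNA was sequenced from 7 libraries. Per the methods of the study, trimming used Cutadapt, STAR placed the reads on hg38 and Salmon gave the counts per gene. Versions and annotation are not given in the sources used here. The authors deposited normalised counts, i.e. counts divided by a size factor per library, in which 100% of values were whole multiples of 1 read (tolerance 0.001). Column names matched the sample titles, and 0 columns of other samples were present. This scaling takes the typical gene as not changed.

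From these values limma (3.58.1, R 4.3.3) was fitted to log2(normalised count + 1) with the variance trend, for 15420 genes with a mean of at least 10, two-sided, with Benjamini-Hochberg adjustment over all genes. This scale understates the change of low genes. The pooled comparison used 2 levels, and the others used 1 fit with 3 groups. Negative binomial tests were not run, although whole reads could be recovered. Lengths and coordinates came from GENCODE release 44, which held 99.9% of the identifiers. Scripts were tested on simulated data.

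Genes named were the 10 receptors, GRASLND, the listed ligands of these receptors, from each other pathway list the 4 genes with the largest change among those that passed with a mean of at least 50 and the 2 of the highest level per kb, and the 2 genes most like each receptor. NRG3, NRG4, ERBB4, FGFR4, ADAM19, PTPRJ, SOCS6, LRIG3, PTPRK, CBL, SPRY2, SPRED1, SPRED2, MITF and LYZ were named after their values were seen. Results for some genes that the rule names are not reported here. The receptors and lists were chosen with earlier results of these data known. Alternatives covered the pseudocount, the minimum mean, scaling, a fit with no trend, a replicate block, other choices of libraries in the fit, limma-voom on the recovered reads and leaving out each library.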

Additional observations from a re-analysis of the deposited data

Results flagged for a closer look

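Of the 6 tested receptors, MET drew attention because the effect of the hairpins differed in the direct comparison. Its log2 fold change for sh4 against sh8 was -1.0 (SE 0.13, adjusted p 0.00302 by limma), and both sh4 libraries lay below both sh8 libraries. The summed melanocytic markers moved in the same order, with 54140 to 62007 normalised counts under sh4 and 104336 to 107281 under sh8, a sum led by the most abundant of the 9 genes, of which 6 passed lower under sh4 than under sh8. TYR, PAX3 and S100B were not among them. GRASLND was 131 and 175 under sh4 and 163 and 227 under sh8. Their part in the difference of MET was not tested. No knockdown library was flagged by the outlier check of Dixon. The widest gap, 0.682 as a share of the whole range for NGFR, was below its 95% critical value for 4 samples. With 4 libraries that mix both hairpins, this check cannot show that no library stood apart. NGFR was 12.7 normalised counts in the second sh4 library and at most 5.27 in the other knockdown libraries.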

How the results depend on the processing

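The number of receptors past the threshold was small and moved with the processing. Pooled it was 1 in the reported fit, 2 after quantile normalisation or when the 3-group fit gave the average of sh4 and sh8, 0 without the variance trend, 0 with the replicate number as a block and 0 to 1 when 1 library was left out. Under sh4 it was 1, then 2 with upper quartile scaling or quantile normalisation and 1 to 3 with a library left out. Under sh8 it was 2, then 0 without the variance trend and 0 to 2 with a library left out. Between the hairpins it was 1, then 2 with the libraries of those groups alone and 1 to 2 with a library left out. MET under sh4 and between the hairpins passed in 17 of 17 alternatives. Directions that reversed belonged to values that did not pass as reported. After quantile normalisation IGF1R was 0.014 under sh4 and 0.15 against sh8. With 1 library left out, ERBB2 pooled ranged from -0.043 to 0.49, ERBB3 under sh4 from -0.20 to 0.62, ERBB3 against sh8 from -0.32 to 0.50, FGFR1 against sh8 from -0.038 to 0.10 and IGF1R against sh8 from -0.17 to 0.093.

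Over all genes, 711 passed pooled, with 55.3% of them higher. With upper quartile scaling 65.6% of 752 were higher, without the variance trend 67.4% of 138, with the replicate block 76.2% of 42, and in the 3-group fit 46.6% of 2534. Without the variance trend, 59 passed under sh8 and 476 between the hairpins (451 and 1079 as reported). With only the control and sh8 libraries in the fit, 299 passed under sh8. Leaving out 1 library gave 66 to 1189 pooled, 1407 to 4867 under sh4, 52 to 1597 under sh8 and 144 to 1979 between the hairpins. Whether the replicate numbers pair the samples cannot be told from these values. Same-numbered libraries correlated in their deviations from the group mean by 0.34 and 0.21 (shlacZ and sh4), 0.12 and -0.08 (shlacZ and sh8) and 0.03 (sh4 and sh8). In a group of 2 libraries the deviations mirror each other, so the values of a pair are not separate. Differently numbered libraries were not compared. The causes were not tested. Depth limits NGFR and NTRK2. Levels per kb and shares moved with the transcript length, an alternative chosen after seeing the data, and KIT over MET went from 1.89 to 0.910 under sh8 with the length of all exons.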
